A study of Rattus norvegicus with 22 samples.

Results

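The genes described here encode the structural proteins of the lung matrix: the collagen chains, the laminin chains and nidogens of basement membranes, elastin with the fibulins, fibrillin and lysyl oxidases of the elastic fiber, and the small leucine-rich proteoglycans decorin, lumican, biglycan and fibromodulin. They were picked by annotated gene symbol, and 65 of the 14217 genes named on the array met that rule. These 65 genes had 92 probesets. Each gene is represented by the probeset with the highest mean signal, because 23 of them had more than 1.

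Right lungs of 22 male Sprague–Dawley rats were measured on Affymetrix rat whole-genome expression arrays, with 1 rat per array. Severe PE rats were injected through the right jugular vein with 2000000 polystyrene microspheres of 25 micron for each 100 g of body weight, in 0.15 ml, and were studied at 18 h (4 rats) or 2 h (4 rats). Mild PE rats received 1300000 for each 100 g in 0.10 ml by the same route (4 rats at 18 h and 4 at 2 h). Vehicle rats received the suspending liquid alone, 0.01% Tween-20 at the volume used for Severe PE, and numbered 3 at 18 h and 3 at 2 h, so no Vehicle group matched the volume given in Mild PE. The rats weighed about 350 g, every lung was lavaged with 8 ml of saline before it was removed, and no group was left uninjected. Microspheres block vessels mechanically, without a clot, which limits the model as one of thromboembolism. Every value below comes from homogenised lung, in which fewer cells of a type and less RNA per cell cannot be told apart.

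Fibrillar collagens form the tensile cables of vessel and airway walls, while type IV collagen and laminin form separate sheets that nidogens tie into the basement membrane under endothelium and epithelium. Elastic fibers, built from elastin on a fibrillin scaffold with fibulins and crosslinked by lysyl oxidases, give the alveolar wall and the arteries their recoil. The small leucine-rich proteoglycans coat collagen fibrils and set their diameter.

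Levels are given as log2 of the normalised signal and differences as log2 of PE over Vehicle, with the standard error (SE) of the limma fit. A gene was called when its Benjamini-Hochberg adjusted p over all 31042 probesets was under 0.05 and the group means differed at least 1.5-fold. Levels of different genes are not set against each other, because probesets differ in brightness. Background shares below are over all 31042 probesets, including dim ones and 9780 with no gene symbol. The 65 genes are each given by their brightest probeset, and shares among probesets of matched brightness were not computed. Of the 65 genes, 53 lay above the signal floor of 4 (log2) on every array. Col19a1 lay below it on 20 of 22 arrays, Col9a1 on 14, Col25a1 on 13 and Col20a1 on 9, so their differences carry little information. The Gapdh control signal, a sign of RNA integrity when its 3′ and 5′ probesets differ, showed a 3′ excess over 0.3 on 5 arrays, with 1 array in each group except Mild PE at 2 h, which had none. The largest excess, 0.64, was on replicate 1 of Vehicle at 18 h, and counts without those 5 arrays are given beside the main results.

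At 18 h the structural matrix genes that passed the test were all lower in Severe PE. Of 65 genes, 11 fell in Severe PE lungs compared with Vehicle lungs and 0 rose, beside a background of 3.91% of all probesets called lower and 3.21% called higher. Among the dimmer probesets, which represent no gene here, 1 of Lox and 1 of Col12a1 passed as higher. The genes that fell were the type IV collagens Col4a5 and Col4a6, the network collagen Col8a2, the transmembrane collagen Col13a1, the laminin chains Lama2, Lama3 and Lamb2, the elastic fiber genes Fbln2, Fbln5 and Loxl1, and the proteoglycan Bgn. The median difference over the 65 genes was -0.22, against 0 over all probesets. By the looser measure of an unadjusted p under 0.05, 24 genes were lower and 3 were higher in Severe PE, against a background of 13.2% and 12.1%. The groups did not overlap for 23 genes that were lower and 3 that were higher, against 12% and 11.2% of all probesets. Without the 5 arrays of high Gapdh 3′ excess, 1 of the 65 genes, Col13a1, was called (background 0.312%), and without replicate 1 of Vehicle alone 4 were called. The methods' t-test called 7 of the 11 (background 3.92%). When each of the 7 rats was left out in turn, Col13a1 was called in 7 of 7 runs, Lama3 in 6, Bgn in 5, Col4a5 and Col4a6 in 3, Fbln2, Lama2 and Lamb2 in 2, Col8a2 and Fbln5 in 1 and Loxl1 in 0, always with a difference below 0.

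In Mild PE lungs 3 genes fell compared with Vehicle (Bgn, Col13a1 and Col4a6) and 0 rose, beside 0.528% of all probesets called lower and 0.506% called higher. The median difference was -0.26 over the 65 genes and 0 over all probesets. An unadjusted p under 0.05 was reached by 21 genes that were lower and 3 that were higher, against 9.93% and 8.74%, and 17 genes were lower with no overlap between groups, against 8.81%. No gene was called without the arrays of high 3′ excess (background 0.00966%), and none was called without replicate 1 of Vehicle. The methods' t-test called 0 of the 3 (background 0.164%). Each of the 3 calls was kept in 1 of the 7 runs that left out a rat. The Mild PE and Severe PE differences at 18 h share the same 3 Vehicle rats, so they are not independent of each other. Severe PE and Mild PE lungs did not differ for any of the 65 genes by this test at 18 h (0 called by limma and by the methods' t-test, background 0%), with an unadjusted p under 0.05 for 3 genes that were higher and 5 that were lower in Severe PE, against 6.65% and 7.33% of all probesets.

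**Figure D1:**
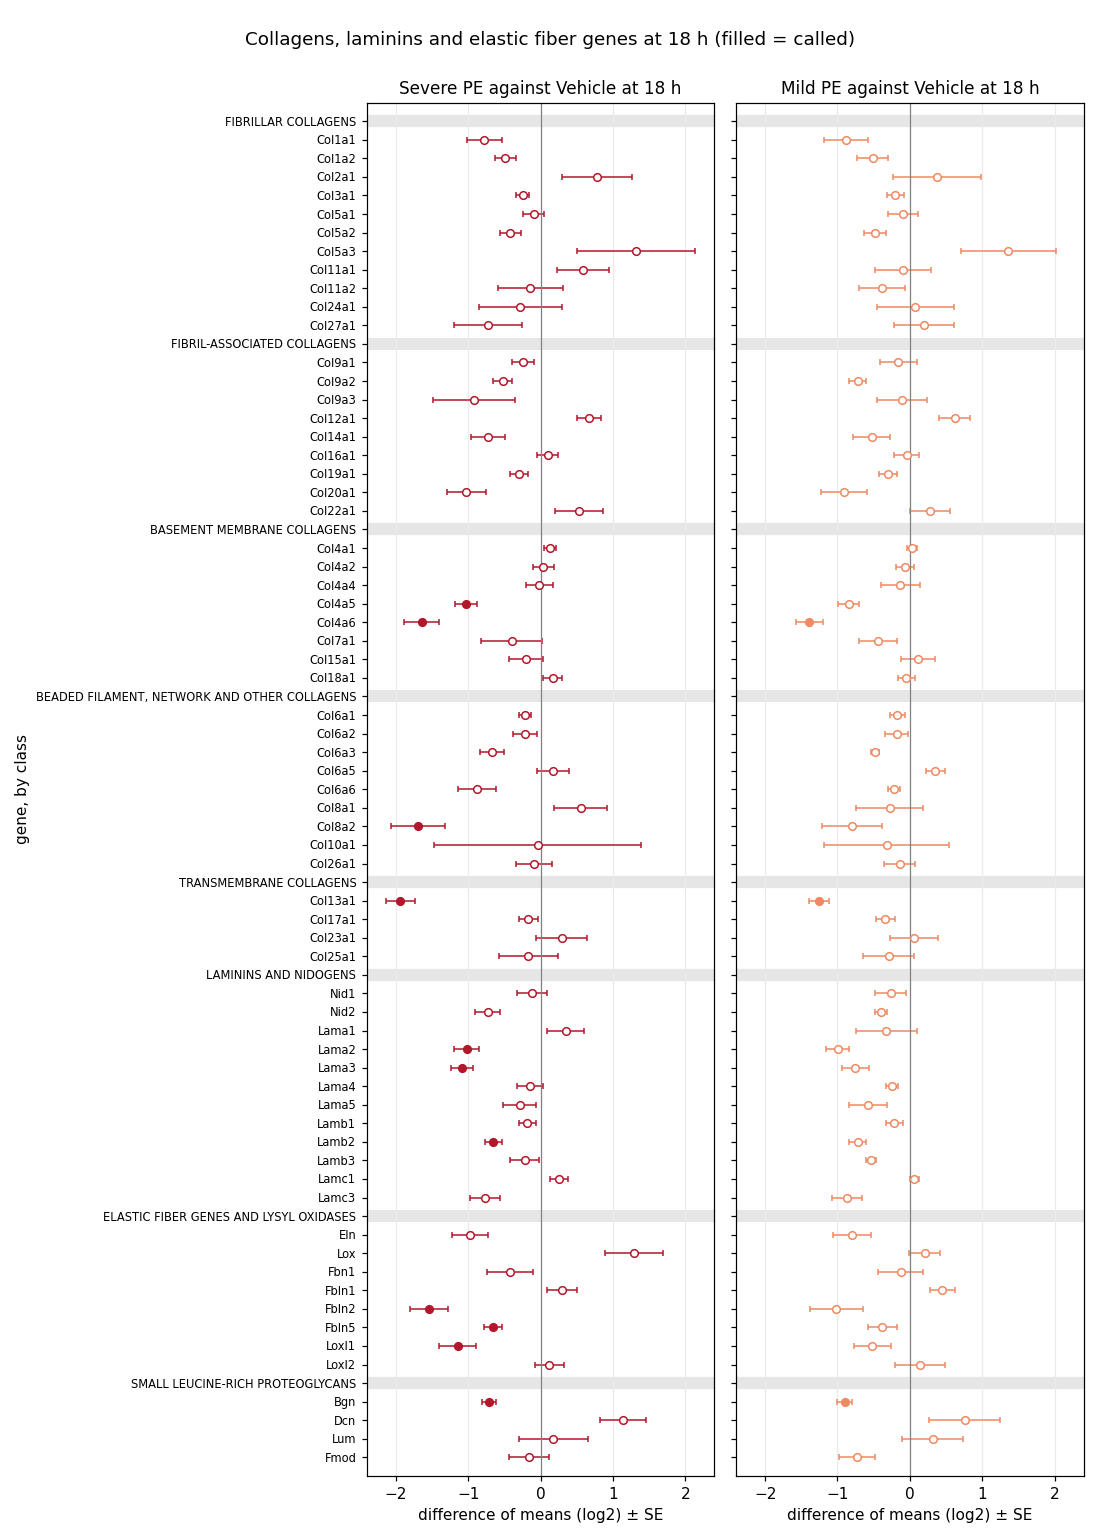
Differences in mean log2 signal from Vehicle at 18 h for all 65 genes, grouped by class, with Severe PE on the left and Mild PE on the right. Points are differences of group means (4 PE rats and 3 Vehicle rats), bars are the SE, and filled points mark the 11 genes called in Severe PE and the 3 called in Mild PE, all of them below 0.

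Markers of several cell types differed in the same comparison. At 18 h, all 6 measured endothelial markers were lower in Severe PE than in Vehicle, with Vwf and Tie1 called lower, and their mean log2 level ranged from 11.80 to 12.07 in Severe PE lungs and from 12.50 to 12.61 in Vehicle lungs. Of 8 fibroblast markers 7 were lower, with mean levels from 9.18 to 9.38 in Severe PE and from 9.92 to 10.04 in Vehicle. Their median difference was -0.41, and the single genes ranged from -2.56 for Fgfr4, which was called, to 0.07 for Pdgfra. All 4 alveolar type I markers were lower, with mean levels from 12.65 to 13.24 in Severe PE and from 13.56 to 13.66 in Vehicle. Macrophage markers averaged 11.003 to 11.302 in Severe PE and 10.45 to 10.53 in Vehicle, with 3 of 4 above Vehicle and Chi3l1 called higher. Heart muscle markers were all below Vehicle (4 of 4, 0 called), with means from 8.70 to 9.61 in Severe PE and from 9.65 to 10.58 in Vehicle. Mesothelial markers averaged 9.001 to 9.288 in Severe PE and 8.66 to 8.90 in Vehicle. Of these Lrrn4 was called higher and Wt1 was higher, but Msln was not (mean 10.26 in Severe PE and 10.27 in Vehicle). Alveolar type II markers averaged 13.78 to 13.91 in Severe PE and 13.63 to 13.70 in Vehicle. Lamp3 was called higher (12.66 against 11.61). Sftpc (14.52 against 14.74) and Abca3 (12.42 against 12.75) were lower in Severe PE, and the other type II markers were higher. Means of the smooth muscle and pericyte list (1 of 7 called lower) and of the neutrophil, cartilage, skeletal muscle and airway lists (0 called) overlapped between groups.

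In Mild PE at 18 h, 4 of these lists had means that did not overlap those of Vehicle. Endothelial means ranged from 11.98 to 12.34 in Mild PE and from 12.50 to 12.61 in Vehicle, and fibroblast means from 9.34 to 9.76 in Mild PE and from 9.92 to 10.04 in Vehicle. Alveolar type I means ranged from 13.25 to 13.41 in Mild PE and from 13.56 to 13.66 in Vehicle, and macrophage means from 10.997 to 11.406 in Mild PE and from 10.45 to 10.53 in Vehicle. Of the markers in the 4 lists, Chi3l1 was called higher in Mild PE and none was called lower. The part of these differences in the results for matrix genes was not tested. Marker calls at 18 h were not repeated without the arrays of high Gapdh 3′ excess or with single rats left out.

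Among transmembrane collagens, which sit in the cell membrane with their collagen domain outside, Col13a1 had the largest difference of the 65 genes in Severe PE. Its protein gathers at sites where cells adhere to matrix. Log2 signals of Col13a1 at 18 h were 9.44, 9.45, 8.78 and 9.58 in Severe PE lungs, against 11.32, 11.20 and 11.25 in Vehicle lungs. All Severe PE rats were below all Vehicle rats, a difference of -1.94 ± 0.20 (SE) or 3.84-fold, with a limma adjusted p of 0.00937. In Mild PE lungs Col13a1 gave 10.21, 9.80, 10.22 and 9.77, and the difference from Vehicle was -1.26 ± 0.14 (2.39-fold, limma adjusted p = 0.0333). The 4 Mild PE rats lay between the Severe PE and the Vehicle rats with no overlap on either side, but the difference of Severe PE from Mild PE, -0.68 ± 0.21, did not pass the test (limma adjusted p = 0.221). The other transmembrane collagens, Col17a1 of epithelial hemidesmosomes, Col23a1 and Col25a1, differed by -0.17, 0.29 and -0.17 in Severe PE and were not called.

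Basement membrane collagens were called for some genes and not for their close relatives. Col4a5 and Col4a6, whose chains join in a restricted type IV network found in specialised basement membranes, fell in Severe PE at 18 h, while Col4a1 and Col4a2, whose chains form the type IV network of nearly every basement membrane, differed by 0.12 or less. The difference between these pairs was not itself tested. Within each pair the genes stand head to head on the genome. The RefSeq promoter windows of Col4a1 and Col4a2 overlap by 176 bases on chromosome 16, and those of Col4a5 and Col4a6 lie 914 bases apart on chromosome X. The windows below let the Col4a5 and Col4a6 promoters be compared with that of Col4a1, and the Col4a2 window is not printed. Each runs from 250 bases before to 50 after the annotated start (RefSeq, GRCr8) and reads 5′ to 3′ on the strand of its gene. Capitals mark matches, on either strand, to the GC box GGGCGG and the CCAAT box CCAAT. They are Col4a5 (chrX:109907109-109907408, plus strand), Col4a6 (chrX:109905895-109906194, minus strand) and Col4a1 (chr16:84885347-84885646, plus strand).
Col4a5: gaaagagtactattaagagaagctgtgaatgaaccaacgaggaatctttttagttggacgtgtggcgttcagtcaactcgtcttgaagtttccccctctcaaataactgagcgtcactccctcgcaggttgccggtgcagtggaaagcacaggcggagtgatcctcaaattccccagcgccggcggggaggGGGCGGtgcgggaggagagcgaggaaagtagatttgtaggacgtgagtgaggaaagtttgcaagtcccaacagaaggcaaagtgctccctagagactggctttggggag
Col4a6: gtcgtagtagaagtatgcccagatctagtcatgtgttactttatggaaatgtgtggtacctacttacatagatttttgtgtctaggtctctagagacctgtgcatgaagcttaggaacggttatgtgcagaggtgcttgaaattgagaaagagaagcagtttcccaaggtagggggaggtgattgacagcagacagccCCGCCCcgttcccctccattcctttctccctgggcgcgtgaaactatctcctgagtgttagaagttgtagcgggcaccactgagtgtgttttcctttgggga
Col4a1: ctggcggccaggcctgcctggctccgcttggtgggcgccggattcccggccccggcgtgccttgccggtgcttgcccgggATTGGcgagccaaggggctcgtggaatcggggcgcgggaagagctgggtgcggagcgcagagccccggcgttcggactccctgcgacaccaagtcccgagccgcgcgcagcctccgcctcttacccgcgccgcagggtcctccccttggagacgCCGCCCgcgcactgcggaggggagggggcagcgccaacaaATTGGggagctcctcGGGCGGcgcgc
Col4a5 and Col4a6 each held 1 GC box and no CCAAT box in these windows, and Col4a1 held 2 GC boxes and 2 CCAAT boxes. Of 33469 promoter windows of this length, 33.1% held a GC box and 37.5% a CCAAT box on either strand, and of the 48 genes with a window 56.2% and 33.3% did.

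Col4a6 signals at 18 h were 7.95, 7.32, 7.35 and 7.81 in Severe PE lungs, against 9.44, 8.83 and 9.49 in Vehicle lungs. No Severe PE rat reached any Vehicle rat, and the difference was -1.64 ± 0.24 (3.13-fold, limma adjusted p = 0.0186). A second, dimmer probeset of Col4a6 gave -1.59 ± 0.35 (limma adjusted p = 0.0482). In Mild PE lungs Col4a6 gave 8.05, 7.83, 7.77 and 7.80, which was -1.39 ± 0.18 from Vehicle (2.62-fold, limma adjusted p = 0.0417). Col4a5 gave 11.33, 11.04, 10.78 and 11.33 in Severe PE lungs, against 12.11, 12.16 and 12.18 in Vehicle lungs, a difference of -1.03 ± 0.15 (2.04-fold, limma adjusted p = 0.0184). In Mild PE the Col4a5 difference of -0.85 ± 0.14 had an adjusted p of 0.0597 and was not called, although the 4 rats, at 11.54, 11.16, 11.49 and 11.03, were all below the 3 Vehicle rats.

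By contrast Col4a1 signals at 18 h were 13.36, 13.30, 13.27 and 13.52 in Severe PE lungs, against 13.33, 13.15 and 13.23 in Vehicle lungs. The groups overlapped, and the difference was 0.12 ± 0.08 (limma adjusted p = 0.434). Col4a2 gave 12.34, 12.51, 12.37 and 12.67 in Severe PE lungs, against 12.73, 12.27 and 12.31 in Vehicle lungs, again with overlap (0.04 ± 0.15, adjusted p = 0.938). In Mild PE the differences were 0.03 ± 0.07 for Col4a1 and -0.07 ± 0.13 for Col4a2. Col4a4, of the glomerular and alveolar type IV network, differed by -0.02 ± 0.19 in Severe PE. Col7a1, the anchoring fibril collagen, and the basement membrane zone collagens Col15a1 and Col18a1 gave -0.40, -0.20 and 0.17 and were not called. Of the 8 genes of this class, 2 were called lower in Severe PE and 1 in Mild PE, against 3.91% and 0.528% of all probesets.

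**Figure D2:**
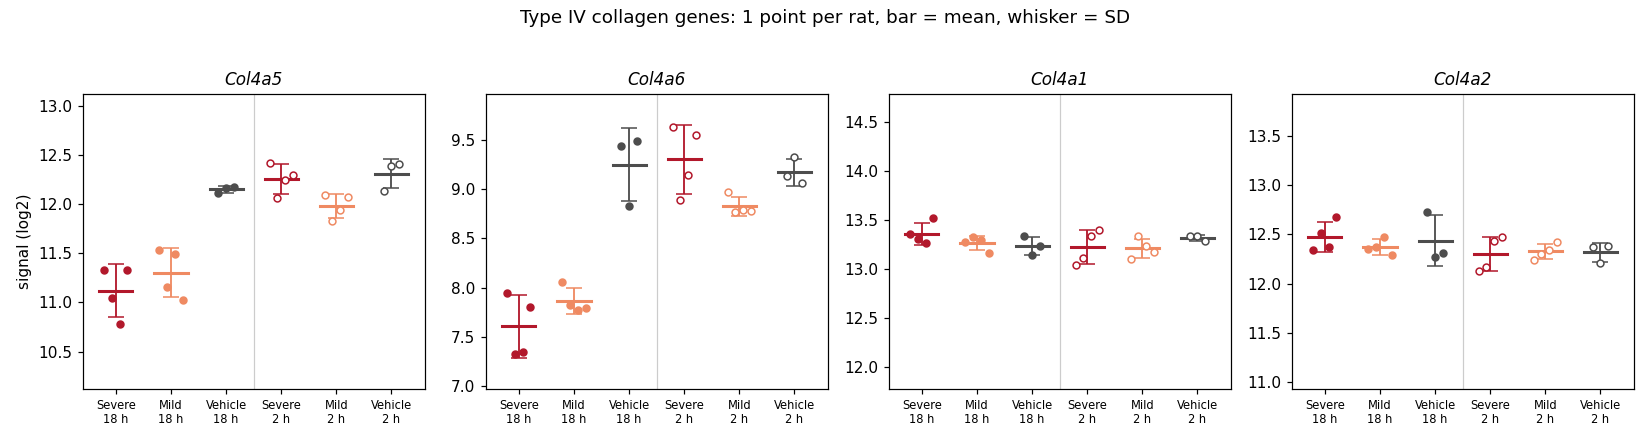
Log2 signal of Col4a5, Col4a6, Col4a1 and Col4a2 in each of the 22 rats, with filled points at 18 h and open points at 2 h. Bars are means, whiskers the SD, and all panels span the same number of log2 units. For Col4a5 and Col4a6 the 4 Severe PE and 4 Mild PE rats at 18 h sit below the 3 Vehicle rats, and for Col4a1 and Col4a2 the groups overlap.

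Of the 12 laminin and nidogen genes 3 fell in Severe PE at 18 h and 10 had a difference below 0, against 3.91% and 51.4% of all probesets. Laminins are trimers of an alpha, a beta and a gamma chain. The 3 called genes encode alpha and beta chains, and the gamma chain genes, given below, were not called. Lama2 encodes the alpha chain typical of muscle and mesenchymal basement membranes. Its signals were 8.29, 8.43, 7.84 and 8.54 in Severe PE lungs, against 9.32, 9.27 and 9.30 in Vehicle lungs (-1.02 ± 0.17, 2.03-fold, limma adjusted p = 0.0248). Lama3, the alpha chain of the epithelial laminin that anchors hemidesmosomes, gave 7.76, 7.67, 7.40 and 7.75 in Severe PE lungs, against 8.64, 9.02 and 8.53 in Vehicle lungs (-1.09 ± 0.15, 2.13-fold, limma adjusted p = 0.017). Lamb2, a beta chain of vascular and neuromuscular basement membranes, gave 11.68, 11.65, 11.62 and 11.84 in Severe PE lungs, against 12.58, 12.30 and 12.17 in Vehicle lungs (-0.65 ± 0.11, 1.57-fold, limma adjusted p = 0.0264). For all 3 genes the highest Severe PE rat was below the lowest Vehicle rat.

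In Mild PE the same genes differed from Vehicle by -0.996 ± 0.160 (Lama2), -0.75 ± 0.19 (Lama3) and -0.72 ± 0.12 (Lamb2), with adjusted p of 0.0551, 0.117 and 0.0555, and none was called. Laminins and nidogens had the lowest class median in Mild PE, -0.47, with 7 of 12 genes below all Vehicle rats (8.81% of all probesets), and in Severe PE the median was -0.26 with 5 of 12 (12% of all probesets). Lamb3, which pairs with Lama3 in the epithelial laminin, had an adjusted p of 0.0372 in Mild PE but a difference of -0.54 ± 0.07, short of 1.5-fold. Lamc1, the gamma chain shared by most laminins, lay above 0 at both doses. It differed by 0.25 ± 0.13 in Severe PE (adjusted p = 0.287) and by 0.06 ± 0.06 in Mild PE. In Severe PE the highest difference of the class was 0.34, for Lama1. Lamc3, another gamma chain, differed by -0.77 in Severe PE and -0.87 in Mild PE and was not called. For Lamc3 all PE rats at 18 h were below all Vehicle rats. In 1 fit on all 22 arrays both Lamc3 differences were called (limma adjusted p = 0.0106 and 0.0117). Lama5, the main alpha chain of mature lung, gave 11.30, 10.87, 11.03 and 11.75 in Severe PE lungs, against 11.62, 11.62 and 11.35 in Vehicle lungs. These groups overlapped (-0.29 ± 0.22, adjusted p = 0.501). The nidogens, which bridge laminin and type IV collagen, differed by -0.12 ± 0.20 (Nid1) and -0.73 ± 0.17 (Nid2) in Severe PE, and neither was called (adjusted p = 0.789 and 0.0522).

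The elastic fiber class had the lowest median in Severe PE at 18 h, -0.54 over 8 genes, and it held genes on both sides of 0. That median was -0.73 without replicate 2 of Vehicle and -0.32 without replicate 3. Fbln2, a fibulin that joins elastic fibers to basement membranes in vessel walls, gave 7.05, 6.79, 7.46 and 7.81 in Severe PE lungs, against 8.76, 8.99 and 8.71 in Vehicle lungs (-1.54 ± 0.26, 2.91-fold, limma adjusted p = 0.0246). Fbln5, which is needed for elastic fiber assembly in mice, gave 9.03, 9.04, 8.71 and 8.99 in Severe PE lungs, against 9.60, 9.40 and 9.78 in Vehicle lungs (-0.65 ± 0.13, 1.57-fold, limma adjusted p = 0.0335). No Severe PE rat overlapped a Vehicle rat for either fibulin. Fbln1 differed by 0.30 ± 0.20 and was not called.

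Elastin itself was not called. Eln signals were 11.10, 11.38, 10.93 and 11.18 in Severe PE lungs, against 12.56, 11.59 and 12.23 in Vehicle lungs. The groups did not overlap, but the Vehicle rats were spread widely and the difference of -0.98 ± 0.25 had an adjusted p of 0.0656. Fbn1, which encodes the fibrillin of the microfibril scaffold, gave 11.22, 11.58, 11.21 and 10.96 in Severe PE lungs, against 11.57, 11.09 and 12.34 in Vehicle lungs. The Fbn1 groups overlapped (-0.43 ± 0.32, adjusted p = 0.484).

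The lysyl oxidases, copper enzymes that crosslink collagen and elastin, had differences on both sides of 0. Loxl1, the member tied to elastin crosslinking in mice, fell in Severe PE at 18 h with signals of 11.53, 11.87, 11.54 and 10.97, against 12.57, 12.32 and 12.98 in Vehicle lungs (-1.15 ± 0.25, 2.22-fold, limma adjusted p = 0.0475). This call was lost when any 1 of the 7 rats was left out. Lox gave 12.03, 12.09, 11.39 and 13.13 in Severe PE lungs, against 11.09, 10.68 and 10.83 in Vehicle lungs. All 4 Severe PE rats were above all 3 Vehicle rats, but by unequal amounts, and the difference of 1.29 ± 0.40 had an adjusted p of 0.112. A dimmer probeset of Lox gave 1.97 ± 0.42 (3.92-fold) with an adjusted p of 0.0441 and passed the threshold, so the reading for Lox depends on the probeset. In Mild PE lungs Lox gave 10.69, 10.93, 11.49 and 11.19, with a difference of 0.20 ± 0.21. Loxl2 differed by 0.12 ± 0.20 in Severe PE.

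**Figure D3:**
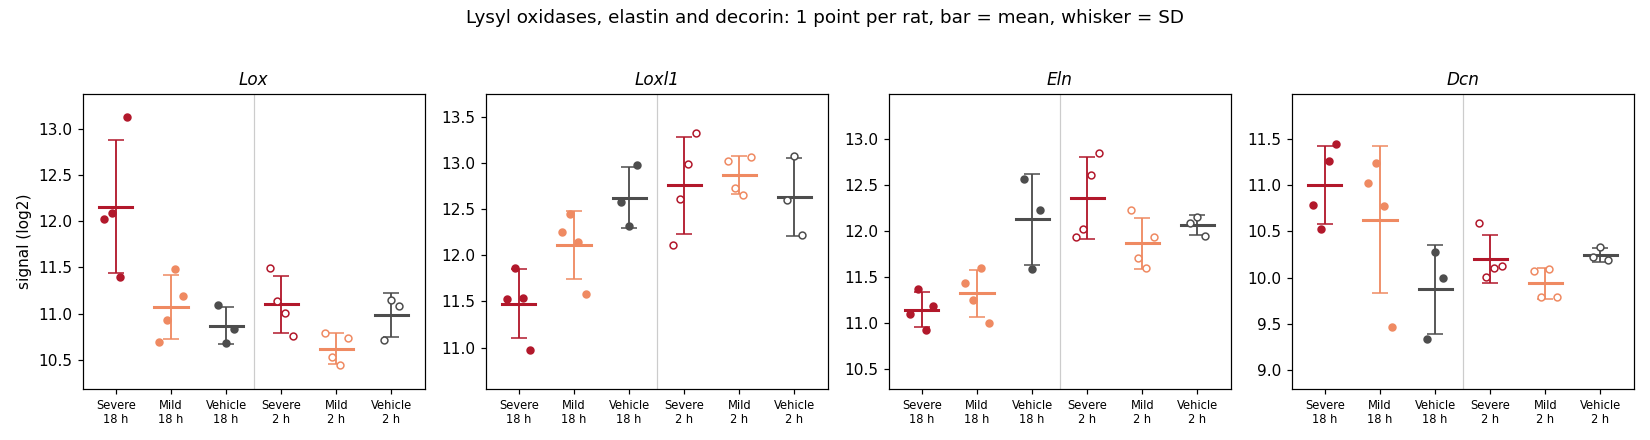
Log2 signal of Lox, Loxl1, Eln and Dcn in each of the 22 rats, with filled points at 18 h and open points at 2 h, bars for means and whiskers for the SD, on panels of equal span. At 18 h Lox and Dcn lie higher, and Loxl1 and Eln lower, in the 4 Severe PE rats than in the 3 Vehicle rats, and of these only the Loxl1 difference was called.

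Small leucine-rich proteoglycans also lay on both sides of 0. Bgn encodes biglycan, which binds collagen and growth factors of the TGF-beta family. Bgn signals at 18 h were 11.17, 11.54, 11.39 and 11.29 in Severe PE lungs, against 11.97, 12.12 and 12.10 in Vehicle lungs (-0.71 ± 0.10, 1.64-fold, limma adjusted p = 0.017). In Mild PE lungs Bgn gave 11.03, 11.04, 11.39 and 11.19, and the difference was -0.90 ± 0.10 (1.87-fold, limma adjusted p = 0.0335). All 8 PE rats were below all 3 Vehicle rats. Dcn encodes decorin, which coats type I collagen fibrils, and its signals were 10.79, 10.53, 11.26 and 11.44 in Severe PE lungs, against 9.34, 10.28 and 10.00 in Vehicle lungs. The Dcn groups did not overlap, and the difference of 1.14 ± 0.32 had an adjusted p of 0.086. The collagen-binding proteoglycans Lum and Fmod differed by 0.18 ± 0.48 and -0.16 ± 0.27 in Severe PE.

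None of the 11 fibrillar collagen genes was called at either dose. Col1a1 and Col1a2, the chains of type I collagen, and Col3a1, of type III collagen in vessel walls, all had differences below 0 at 18 h. Col1a1 gave 11.29, 11.93, 11.92 and 12.15 in Severe PE lungs, against 12.29, 12.65 and 12.86 in Vehicle lungs, with no overlap. The Col1a1 difference was -0.78 ± 0.24 (adjusted p = 0.11), while a second, dimmer probeset gave -0.99 ± 0.17 with an adjusted p of 0.0255 and passed the threshold. Col1a2 differed by -0.49 ± 0.14 in Severe PE (adjusted p = 0.0939) and by -0.51 ± 0.21 in Mild PE (adjusted p = 0.277). Col3a1 differed by -0.25 ± 0.09 in Severe PE (adjusted p = 0.158) and by -0.20 ± 0.11 in Mild PE (adjusted p = 0.421). The class median was -0.25 in Severe PE, with 4 genes at an unadjusted p under 0.05, all lower, against 13.2% of all probesets lower at that p. The highest value of the class, 1.32 for Col5a3, had an SE of 0.81.

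Among the 9 fibril-associated collagens, which decorate fibrils with their interrupted triple helices, Col12a1 stood on the other side of 0 from most of the class at 18 h. Col12a1 is found in dense connective tissue. Its signals were 10.02, 10.15, 10.01 and 10.17 in Severe PE lungs, against 9.37, 9.10 and 9.79 in Vehicle lungs, with no overlap (0.67 ± 0.16, adjusted p = 0.0629). A dimmer Col12a1 probeset, below the floor in 1 of the Vehicle rats, gave 2.01 ± 0.31 with an adjusted p of 0.0202. Col9a2, of type IX collagen, differed by -0.52 ± 0.13 in Severe PE (adjusted p = 0.0679) and by -0.72 ± 0.12 in Mild PE (adjusted p = 0.0573). No gene of the class was called in these comparisons.

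Of the 9 beaded filament, network and other collagens 1 was called lower in Severe PE, against 3.91% of all probesets. It was Col8a2, a short-chain collagen that forms hexagonal lattices in the cornea. Its signals were 8.60, 8.27, 7.95 and 8.46 in Severe PE lungs, against 10.84, 9.35 and 9.84 in Vehicle lungs (-1.69 ± 0.37, 3.24-fold, limma adjusted p = 0.0471). The groups did not overlap, although the Vehicle rats spanned more than a log2 unit. Col6a3, the long chain of the type VI beaded filament, gave 11.94, 12.62, 12.09 and 12.30 in Severe PE lungs, against 12.91, 12.84 and 12.97 in Vehicle lungs (-0.67 ± 0.17, adjusted p = 0.066). In Mild PE the Col6a3 difference had an adjusted p of 0.0333 but was -0.48 ± 0.05, short of 1.5-fold. Col6a1 and Col6a2, its partner chains, differed by -0.21 and -0.22 in Severe PE, and Col6a6, an alternative chain, by -0.87 ± 0.26 (adjusted p = 0.103).

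**Figure D4:**
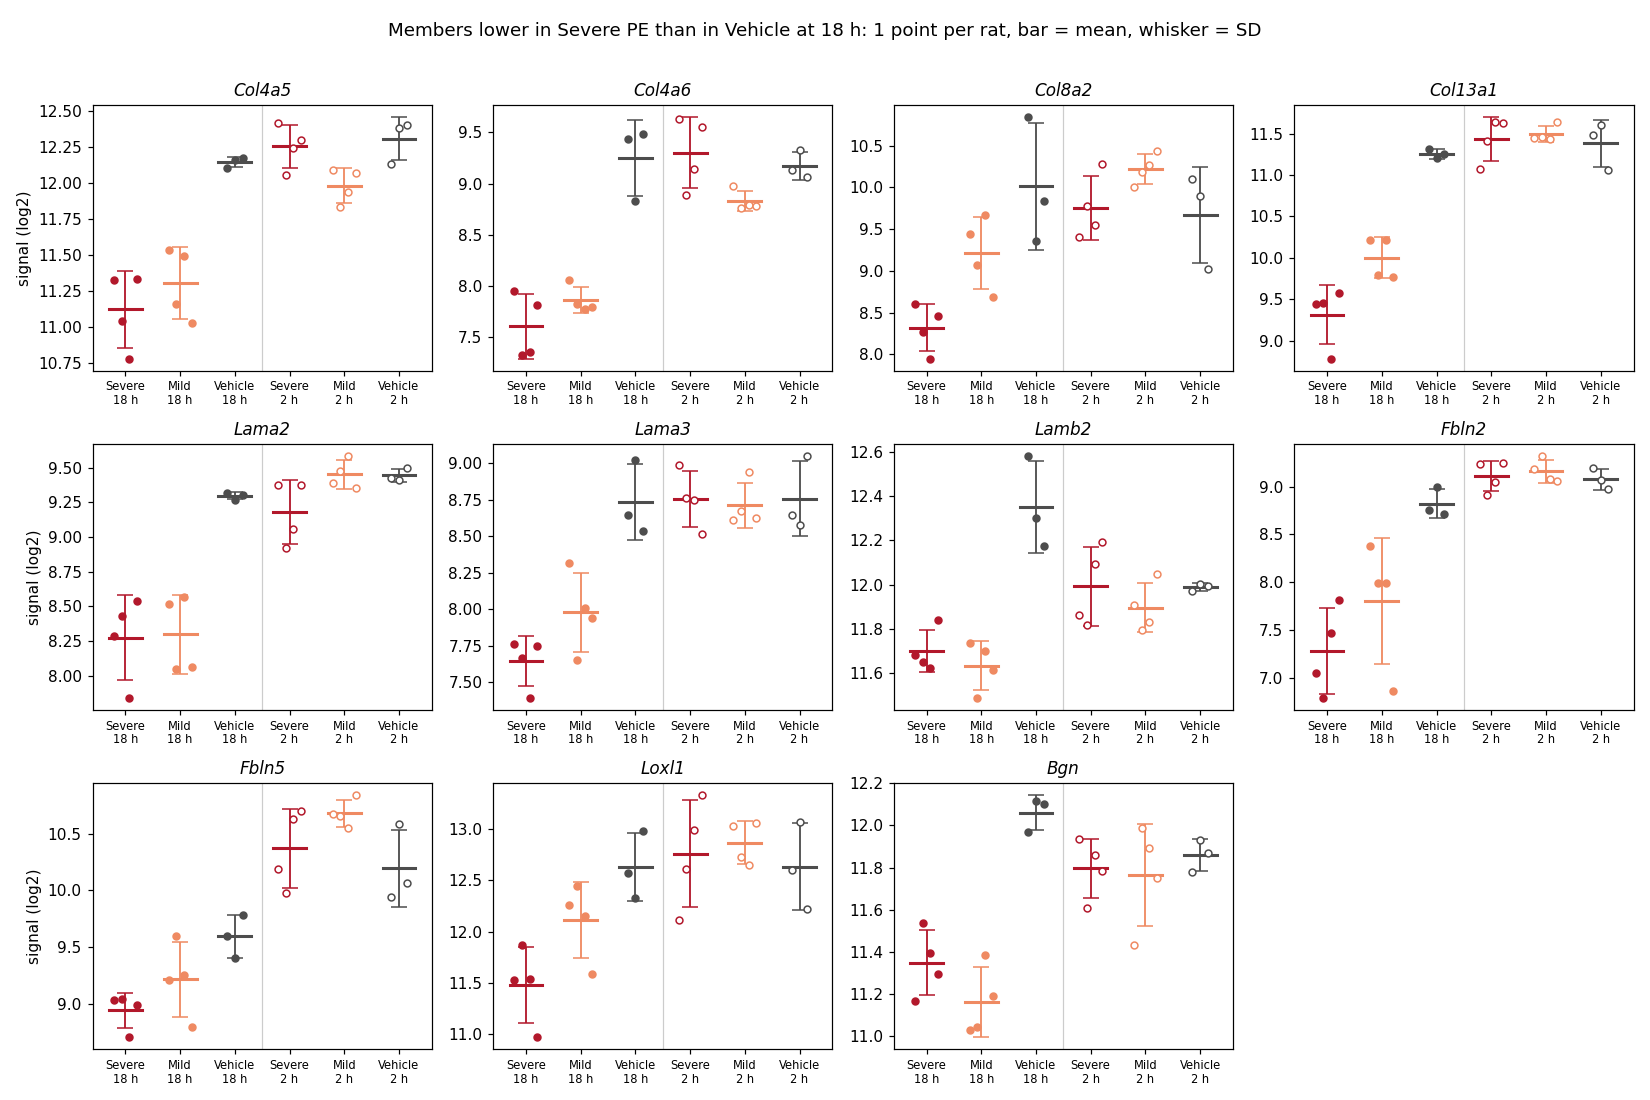
Log2 signal of the 11 genes that fell in Severe PE at 18 h in each of the 22 rats, with filled points at 18 h and open points at 2 h, bars for means and whiskers for the SD. In every panel the 4 Severe PE rats at 18 h lie below the 3 Vehicle rats at 18 h, and none of the 11 genes was called at 2 h.

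At 2 h no gene of the 65 passed the limma test, and the methods' t-test also called 0. The counts were 0 in Severe PE against Vehicle (background 0.0226%), 0 in Mild PE against Vehicle (background 0.332%) and 0 in Severe PE against Mild PE (background 0.438%). An unadjusted p under 0.05 was reached in Severe PE by 1 gene that was lower and 2 that were higher than in Vehicle, against 3.34% and 4.32% of all probesets. In Mild PE it was reached by 11 that were lower and 2 that were higher, against 6.14% and 7.09%. Between Severe PE and Mild PE it was reached by 10 genes that were higher and 1 that was lower in Severe PE, against 5.83% and 6.48%. Medians over the 65 genes were 0.06 in Severe PE and -0.03 in Mild PE. Col13a1 signals at 2 h were 11.07, 11.41, 11.64 and 11.62 in Severe PE lungs, against 11.49, 11.60 and 11.06 in Vehicle lungs, and they overlapped (0.05 ± 0.20). Col4a6 gave 9.63, 8.89, 9.14 and 9.55 in Severe PE lungs at 2 h, against 9.13, 9.32 and 9.06 in Vehicle lungs, also with overlap (0.13 ± 0.20).

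Whether the effect of PE differed between 18 h and 2 h was tested directly, as the difference from Vehicle at 18 h minus that at 2 h in a single limma fit on all 22 arrays. For Severe PE the effect was lower at 18 h for 12 genes and higher for 1, against 3.24% and 2.49% of all probesets. The largest was Col13a1 at -1.996 ± 0.263 (limma adjusted p = 0.000456), followed by Col4a6 at -1.78 ± 0.27 (adjusted p = 0.00124), Col8a2 at -1.77 ± 0.46 (adjusted p = 0.0294) and Fbln2 at -1.57 ± 0.38 (adjusted p = 0.0195). Col4a5 (-0.97), Lama3 (-1.09), Lamb2 (-0.66) and Bgn (-0.65) were also among the 11 genes called at 18 h. Eln (-1.27 ± 0.34, adjusted p = 0.0315), Col6a3 (-0.76), Col6a6 (-1.06) and Col9a2 (-1.01) were not among those 11, which came from fits on a pair of groups. In the fit on all 22 arrays Eln, Col6a3 and Col6a6 were also called lower in Severe PE than in Vehicle at 18 h (limma adjusted p = 0.0085, 0.0025 and 0.00471). Without the 5 arrays of high Gapdh 3′ excess the count was 7, with Col13a1, Col4a5, Col4a6, Col9a2, Fbln2 and Lama3 still called lower, and Lox called higher.

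For Mild PE the effect was lower at 18 h for 3 genes (Bgn at -0.81 ± 0.18, Col13a1 at -1.37 ± 0.26 and Lama2 at -1.004 ± 0.226) and higher for 1, against 0.419% and 0.325% of all probesets. Of these 4 calls, 1 (Col13a1) was made without the arrays of high 3′ excess, 2 with median centring, and 0 without replicate 3 of Vehicle at 2 h. The gene that was higher at both doses was Col12a1, at 1.04 ± 0.24 in Severe PE (limma adjusted p = 0.0153) and 1.18 ± 0.24 in Mild PE (limma adjusted p = 0.0309). Without the high 3′ excess arrays Col12a1 was not called at either dose (limma adjusted p = 0.054 in Severe PE and 0.157 in Mild PE), nor with its probesets averaged (0.0577 in Severe PE and 0.226 in Mild PE). In Mild PE the Col12a1 call was also lost with median centring (0.0672) and kept in 4 of 14 runs that left out a rat, and in Severe PE it was kept in 14 of 14. Its Vehicle signals were 9.37, 9.10 and 9.79 at 18 h, against 10.89, 10.45 and 10.71 at 2 h, and did not overlap. In Severe PE lungs Col12a1 gave 10.02 to 10.17 at 18 h, against 10.06 to 10.53 at 2 h. The Vehicle difference between times, -1.26 ± 0.22, had an adjusted p of 0.194, and no gene of the 65 was called in Vehicle at 18 h against Vehicle at 2 h by limma (background 0.0161%) or by the methods' t-test. An unadjusted p under 0.05 was reached there by 4 genes that were higher and 8 that were lower at 18 h, against 9.16% and 6.35%.

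**Figure D5:**
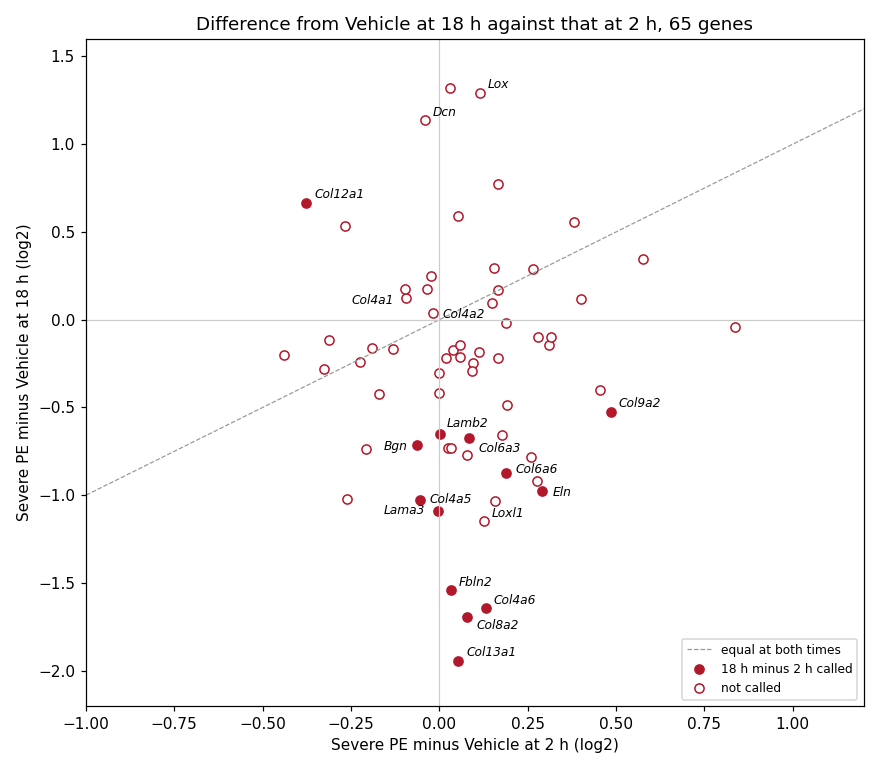
Difference of Severe PE from Vehicle at 18 h (vertical axis, log2) against that at 2 h (horizontal axis, log2) for the 65 genes, with the dashed line where both are equal. Filled points mark the 13 genes whose effect differed between times, of which 12 lie below the line and Col12a1 above it.

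The enzymes and chaperones that modify, fold and process collagen chains had a median difference above 0 at 18 h. Of 16 measured, 2 rose in Severe PE and 0 fell, with a median of 0.27, beside 3.21% of all probesets called higher, 3.91% called lower and a median of 0. Plod2, the lysyl hydroxylase that sets a stable type of collagen crosslink, rose by 1.71 ± 0.09 (3.27-fold, limma adjusted p = 0.00336), and P4hb, a subunit of prolyl hydroxylase and a protein disulfide isomerase, by 0.73 ± 0.09 (1.66-fold, adjusted p = 0.0117). In Mild PE the median was 0.22 and none was called. The Plod2 and P4hb calls were not repeated without the arrays of high Gapdh 3′ excess or with single rats left out.

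Other elastic fiber genes gave 1 rise and 4 falls among 14 measured in Severe PE, read against the same 3.21% higher and 3.91% lower. Efemp2, a fibulin that brings lysyl oxidase to elastin, rose by 1.26 ± 0.09 (adjusted p = 0.00413), while the microfibril gene Mfap5 (-1.54 ± 0.14, adjusted p = 0.00774) and the TGF-beta binding protein gene Ltbp3 (-0.98 ± 0.13, adjusted p = 0.0141) fell. Of 11 basement membrane proteoglycans and related leucine-rich genes, 1 rose and 3 fell, with a median of -0.78, beside 3.21% and 3.91%. Smoc2, a calcium-binding matrix protein, rose by 1.83 ± 0.09 (adjusted p = 0.00265), and the leucine-rich proteoglycan Ogn (-2.41 ± 0.26, adjusted p = 0.00967) and perlecan, Hspg2 (-0.85 ± 0.13, adjusted p = 0.0186), fell. Of 12 matrix receptors 2 fell and 0 rose, beside 3.91% and 3.21%, namely the laminin receptor Dag1 (-0.75 ± 0.08, adjusted p = 0.00881) and the collagen receptor Ddr2 (-0.63 ± 0.10, adjusted p = 0.0226). In Mild PE at 18 h, 1 other elastic fiber gene rose and 1 fell (median -0.20). In the proteoglycan list 1 rose and 0 fell (median -0.45), and of the receptors 0 rose and 1 fell (median -0.32). The share of all probesets was 0.506% called higher and 0.528% called lower. Calls in these lists were not repeated without the arrays of high Gapdh 3′ excess or with single rats left out. Without those arrays 0.312% of all probesets were called in Severe PE at 18 h, and with the replicate number as a block 0% were. How many of the list calls would remain was not tested.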

How the data were processed

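Total RNA from lavaged right lungs was hybridised to 22 arrays. The authors deposited linear intensities for each probeset, with a trimmed mean near 500.2 on all arrays. The software behind them is not given in the sources used here. The paper's methods describe GC-RMA values and t-tests, so these values are another summary of the same arrays, and limma served as the test with the t-test as an alternative. Intensities below 16 (13.6% to 17.3% of the probesets on an array) were raised to 16 before log2 and quantile normalization. The 57 control probesets were dropped. Gene names came from the platform annotation, updated through RefSeq (20826 probesets with 1 symbol, 436 with several and 9780 with none). All 65 member symbols matched RefSeq, and 48 had a promoter window. Fits used limma 3.58.1 (R 4.3.3) with moderated variances and no mean-variance trend. Each of 7 comparisons was fitted on its own pair of groups, and both differences between times on all 22 arrays. Genes named by rule are the 16 called in any comparison, the gene of smallest p in each class in Severe PE at 18 h, and a core list of textbook matrix genes, 26 in all. Many other members were also named, after their values were seen. Members and lists were chosen with earlier results of these data known. The fitting steps were tested on simulated data with known changes. Precision is limited by 3 or 4 arrays in a group, which the labels call biological replicates. Alternatives covered normalization, floor, dim probesets, variance model, test, probeset choice, the replicate number as a block, and arrays left out.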

Additional observations from a re-analysis of the deposited data

Results flagged for a closer look

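Single rats stood apart from the other 3 of their group in 5 of 104 groups of 4 tested, close to the 1 in 20 that chance flags. Col12a1 was 9.79 in replicate 1 of Mild PE at 2 h, against 10.20 to 10.27 in the other rats. Col13a1 was 11.64 in replicate 4 of Mild PE at 2 h, against 11.43 to 11.46. Col4a6 was 8.97 in replicate 1 of Mild PE at 2 h, against 8.76 to 8.79. Replicate 3 of Severe PE at 18 h gave 7.08 for Col9a2, against 6.71 to 6.75, and 8.71 for Fbln5, against 8.99 to 9.04. The array of that Severe PE rat was among the 5 with a high Gapdh 3′ excess.

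The effect of PE differed between 18 h and 2 h by its own limma test for 13 genes in Severe PE and 4 in Mild PE. In Severe PE the effect at 18 h minus that at 2 h was -1.996 for Col13a1, -1.78 for Col4a6, -1.77 for Col8a2, -1.57 for Fbln2, -1.27 for Eln, -1.09 for Lama3 and -1.06 for Col6a6. It was -1.01 for Col9a2, -0.97 for Col4a5, -0.76 for Col6a3, -0.66 for Lamb2, -0.65 for Bgn and 1.04 for Col12a1. In Mild PE it was -1.37 for Col13a1, -1.004 for Lama2, -0.81 for Bgn and 1.18 for Col12a1.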

How the results depend on the processing

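For the called differences of named genes, 612 results came from the alternatives and the runs leaving out a rat. Of these, 414 kept the call, 198 lost it and 0 reversed direction. Without dim probesets, with a variance trend, with the methods' t-test and in 1 fit on all 22 arrays the difference of means is unchanged. Those settings could not reverse it. Genes called in Severe PE against Vehicle at 18 h (11) numbered 17 without dim probesets (2 higher, Dcn and Col12a1). They numbered 16 with a variance trend (2 higher, Dcn and Col12a1) and 15 with averaged probesets (1 higher, Lox). The methods' t-test called 7, beside 3.92% of all probesets. In 1 fit on all 22 arrays 20 were called (3 higher, Dcn, Col12a1 and Lox), beside 12.4% of all probesets. Without the arrays of high Gapdh 3′ excess 1 was called, beside 0.312%. Genes called in Mild PE at 18 h (3) numbered 7 without dim probesets, 6 with a variance trend and 8 when the probesets of a gene were averaged. In 1 fit on all 22 arrays 13 were called (1 higher, Col12a1), beside 5.12% of all probesets. The methods' t-test called 0 (0.164% of all probesets), and 0 were called without the high 3′ excess arrays (0.00966%). This share was not computed without dim probesets, with a variance trend, with averaged probesets or with single rats left out. Severe PE against Mild PE at 2 h (0) gave 1 in the fit on all 22 arrays (Col9a2, higher) and 1 with averaged probesets (Fbln1, lower). Vehicle at 18 h against Vehicle at 2 h (0) gave 4 in the fit on all 22 arrays (Col12a1, Col15a1 and Nid1 lower, Col17a1 higher). The difference between times in Mild PE (4) gave 2 with median centring and 1 without the high 3′ excess arrays, and in Severe PE (13) it gave 7 without them. Leaving out 1 rat at a time gave 4 to 9 calls in Severe PE at 18 h (lowest without Vehicle replicate 1), 0 to 3 in Mild PE at 18 h (lowest without Vehicle replicate 1), 0 to 5 for the difference between times in Mild PE, 8 to 16 for that in Severe PE (lowest without Vehicle replicate 3 at 2 h, highest without Severe PE replicate 1 at 2 h), and 0 elsewhere. The cause of these changes was not tested. Correlations of same-numbered rats between groups ran from -0.27 to 0.12 (51 pairs, median -0.01) and gave no sign that replicate numbers pair the rats. Rats of different numbers were not set beside them, so a weak pairing could have been missed. With the replicate block the calls were 0 in Severe PE and 0 in Mild PE at 18 h, where the block called 0% of all probesets. For the differences between times the block gave 0 calls in Mild PE and 12 in Severe PE.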
